A study of Homo sapiens with 7 samples.

Results

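The secreted WNT antagonists described here are 10 genes, SFRP1, SFRP2, SFRP4, SFRP5, FRZB, WIF1, DKK1, DKK2, DKK3 and DKK4, chosen by name from 20033 protein-coding genes of the GENCODE 44 annotation of hg38. They were placed in the H3K9me3 and H3K27me3 domains of HCT116 cells, a human colorectal carcinoma line, that carried a doxycycline-inducible shRNA against UHRF1 and had been grown without doxycycline for 14 days. Clone 3 and Clone 6, each expanded from this shUHRF1 line, were profiled by ChIP-seq with 2 samples for either mark in Clone 3, 2 for H3K27me3 in Clone 6 and 1 input from Clone 3. Both clones carry the same uninduced shRNA, so the sets describe the baseline and hold no knockdown. The data are 5 sets of broad domains, 1 for each clone and mark (3 sets) and 1 for each mark with the domains that the clones share (2 sets), and H3K9me3 of Clone 6 entered only through the shared set. In these sets, SFRP1 was the single gene of the 10 with its start site in an H3K27me3 domain of both clones. WIF1 lay in H3K27me3 domains in Clone 3 and had no domain within 1289 kb of its start in Clone 6. SFRP4 lay outside them in Clone 3, and its 3′ end reached into an H3K27me3 domain of Clone 6 by 2.07 kb. The start sites of the other 7 genes lay between 120.0 kb and 6825 kb from the nearest H3K27me3 domain of a clone, and none of the 10 genes lay in an H3K9me3 domain.

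WNT ligands are secreted proteins that bind Frizzled receptors and the co-receptors LRP5 and LRP6 at the cell surface, which stabilizes β-catenin and turns on genes that keep intestinal stem cells dividing. Antagonists of the pathway act outside the cell. The secreted frizzled-related proteins (SFRP1, SFRP2, SFRP4, SFRP5 and FRZB, also called SFRP3) carry a cysteine-rich domain like that of the Frizzled receptors and bind WNT ligands, as does WIF1 through a domain of another fold, while DKK1, DKK2 and DKK4 bind LRP5 and LRP6. DKK3 is a divergent relative of the Dickkopf proteins whose action on LRP5 and LRP6 is not settled. Several of these genes are known for dense DNA methylation of their promoters in colorectal cancer. H3K27me3 is the mark written by Polycomb repressive complex 2, and H3K9me3 is the mark of constitutive heterochromatin. Methylation and expression were not measured in the files used here.

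RefSeq (GRCh38.p14) gave the promoter sequence of 6 of the 10 genes, namely SFRP2, SFRP4, SFRP5, FRZB, WIF1 and DKK1, and each of the 6 was identical to hg38 over the 250 bases before the start site. The start used by RefSeq was that of the canonical GENCODE transcript in all 6. The sequence is printed for 4 of them, the promoter that lay in an H3K27me3 domain in a single clone (WIF1), the promoter nearest to a domain without lying in it (SFRP4), the promoter outside the domains with the most CpGs (SFRP5), and the promoter that alone held the TATA letters (DKK1). All are printed 5′ to 3′ on the strand of the gene, with CpG dinucleotides in capitals. The WIF1 stretch is chr12:65121306-65121555 on the minus strand, that of SFRP4 is chr7:37916818-37917067 on the minus strand, that of SFRP5 is chr10:97772000-97772249 on the minus strand and that of DKK1 is chr10:52314031-52314280 on the plus strand.
WIF1: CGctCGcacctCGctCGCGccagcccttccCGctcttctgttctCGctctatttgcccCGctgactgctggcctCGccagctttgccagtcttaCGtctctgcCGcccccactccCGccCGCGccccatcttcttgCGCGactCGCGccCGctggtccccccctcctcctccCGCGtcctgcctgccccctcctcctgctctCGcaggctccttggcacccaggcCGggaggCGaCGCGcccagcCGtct
SFRP4: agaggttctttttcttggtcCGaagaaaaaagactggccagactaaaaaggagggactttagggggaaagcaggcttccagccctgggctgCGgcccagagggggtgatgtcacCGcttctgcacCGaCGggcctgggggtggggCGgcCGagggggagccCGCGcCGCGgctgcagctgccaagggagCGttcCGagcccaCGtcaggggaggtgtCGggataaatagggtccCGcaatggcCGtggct
SFRP5: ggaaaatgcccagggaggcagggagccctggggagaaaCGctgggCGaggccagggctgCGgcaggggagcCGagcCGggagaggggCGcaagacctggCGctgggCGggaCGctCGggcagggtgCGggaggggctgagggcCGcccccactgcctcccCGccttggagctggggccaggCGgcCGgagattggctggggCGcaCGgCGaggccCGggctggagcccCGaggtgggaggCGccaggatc
DKK1: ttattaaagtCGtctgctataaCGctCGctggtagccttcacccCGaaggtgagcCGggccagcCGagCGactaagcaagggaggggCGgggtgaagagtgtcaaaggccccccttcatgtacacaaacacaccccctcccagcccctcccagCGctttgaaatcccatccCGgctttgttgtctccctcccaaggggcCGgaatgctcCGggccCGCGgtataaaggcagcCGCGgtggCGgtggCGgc

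WIF1 held 27 CpGs in these 250 bases, more than 82.7% of the 27305 promoters in the RefSeq table. SFRP5 held 21, DKK1 18 and SFRP4 17, against 11 each in SFRP2 and FRZB. The median over all promoters was 11 CpGs with quartiles of 3 and 23, so SFRP2 and FRZB stood at the middle of that range and WIF1 alone lay above its upper quartile. The letters GGGCGG, the GC box, occurred on either strand in all 6 promoters and in 42.3% of all promoters. The TATA letters TATAAA occurred in DKK1 alone, at position -30 from the start, and in 11.1% of all promoters. The letters CTTTGA, the core read by the TCF and LEF factors of the WNT pathway, occurred in DKK1 alone as well, at position -95 and, on the other strand, at position -149, and in 11.4% of all promoters. Both strands were searched for each motif over the same 250 bases, no match of a motif overlapped a match of another in DKK1, and a match is a match of letters only. WIF1, the only promoter of the 6 in a domain, thus held the most CpGs of the 6 and no TATA or CTTTGA letters.

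A gene was counted in a domain when its start site, the 5′ end of its GENCODE gene record, lay in it. The H3K9me3 set of Clone 3 held 0 of the 10 antagonist starts, where it held the starts of 3.35% of all protein-coding genes. The clone-shared H3K9me3 set also held 0 of 10, beside 3.24% of all genes. H3K27me3 domains of Clone 3 held 2 of 10 starts, those of SFRP1 and WIF1, beside 6.44% of all genes. In Clone 6 they held 1 of 10, that of SFRP1, beside 7.97%. The clone-shared H3K27me3 set held 1 of 10, again SFRP1, beside 5.32%. In a list of 10 genes a count of 0, 1 or 2 is not a result about the list, and none of these counts was tested against the share of all genes.

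Gene bodies gave nearly the same picture. By at least 1 bp of the gene record, H3K9me3 domains held 0 of 10 bodies in Clone 3 and 0 of 10 in the clone-shared set, beside 3.93% and 3.75% of all genes. H3K27me3 domains of Clone 3 touched 2 bodies, SFRP1 over 100% and WIF1 over 97.2% of its length, beside 8.68% of all genes. In Clone 6 they touched 2 bodies, SFRP1 over 24.1% and SFRP4 over 1.73%, beside 10.3% of all genes. The clone-shared H3K27me3 set touched SFRP1 alone, over the same 24.1%, beside 7.19%. The body of SFRP4 was reached only at its 3′ end, and SFRP1 was the only gene of the 10 with H3K27me3 over its start in both clones. Between the clones, 9 of the 10 genes had the same status at their start, 1 inside in both clones and 8 outside in both. Of all protein-coding genes, 96.2% had the same status. The exception was WIF1, inside in Clone 3 alone, a status shared by 224 genes, while 531 genes were inside in Clone 6 alone and 0 of them was an antagonist. With domains of at least 100 kb only, SFRP1 was the exception in place of WIF1. With the upper 50% of domains by the lower of the authors' 2 scores, neither start lay in a domain.

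**Figure D1:**
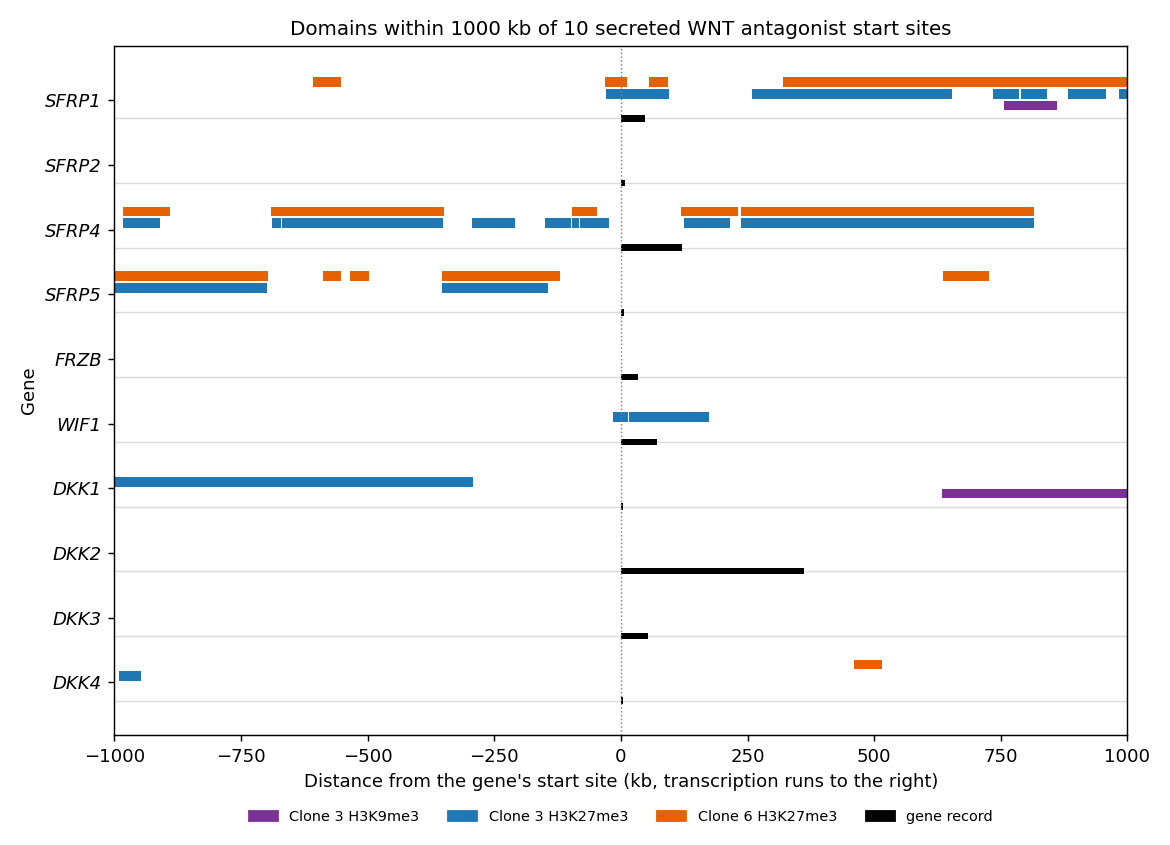
Domains within 1000 kb of each start site, with distance from the start in kb on the x axis (transcription runs to the right) and 1 row for each gene. Purple bars are H3K9me3 domains of Clone 3, blue and orange bars are H3K27me3 domains of Clone 3 and Clone 6, and black bars are gene records. The dotted line at 0 crosses an orange bar at SFRP1 alone and blue bars at SFRP1 and WIF1, and the rows of SFRP2, FRZB, DKK2 and DKK3 hold the gene record and no domain.

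SFRP1 (ENSG00000104332.12) lies on the minus strand of chromosome 8 from 41261962 to 41309473, a record of 47.5 kb. In Clone 3 its H3K27me3 domain ran from 41214001 to 41338000. These 124 kb reached 28.5 kb upstream of the start and 95.5 kb downstream, past the 3′ end of the gene. In Clone 6 the domain over the start ran from 41298001 to 41340000, which is 42 kb, and reached 30.5 kb upstream and 11.5 kb downstream. The upstream edges of the clones thus differed by 2 kb, whereas the downstream edge of Clone 6 fell 84 kb short of that of Clone 3 and lay inside the gene. Another Clone 6 domain of 38 kb followed after a gap of 44 kb, from 41216001 to 41254000, downstream of the gene and inside the reach of the Clone 3 domain. The start of no other protein-coding gene lay in the domain over SFRP1 in either clone.

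Each domain of a clone set carries 2 scores from the authors, whose scale and replicate are not named. The SFRP1 domain had scores of 53.6 and 20.2 in Clone 3 and of 24.7 and 26.8 in Clone 6. By the lower of its scores it ranked at or above 42.3% of domains in Clone 3 and 46.0% in Clone 6, itself included. By score it was thus a middling domain in both. It was at least as long as 70.1% of domains in Clone 3 and 25.1% in Clone 6. Both Clone 6 domains at the locus had the same first score, 24.7. Joining neighbours that share that score gave 1 stretch from 41216001 to 41340000, again 124 kb, which covered 100% of SFRP1, a joining added once the scores were known. Neighbouring domains shared the first score in 18.7% of cases in the Clone 6 H3K27me3 set and in 0.389% in the Clone 3 H3K27me3 set, and the second score in 1.81% and 50.3%.

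**Figure D2:**
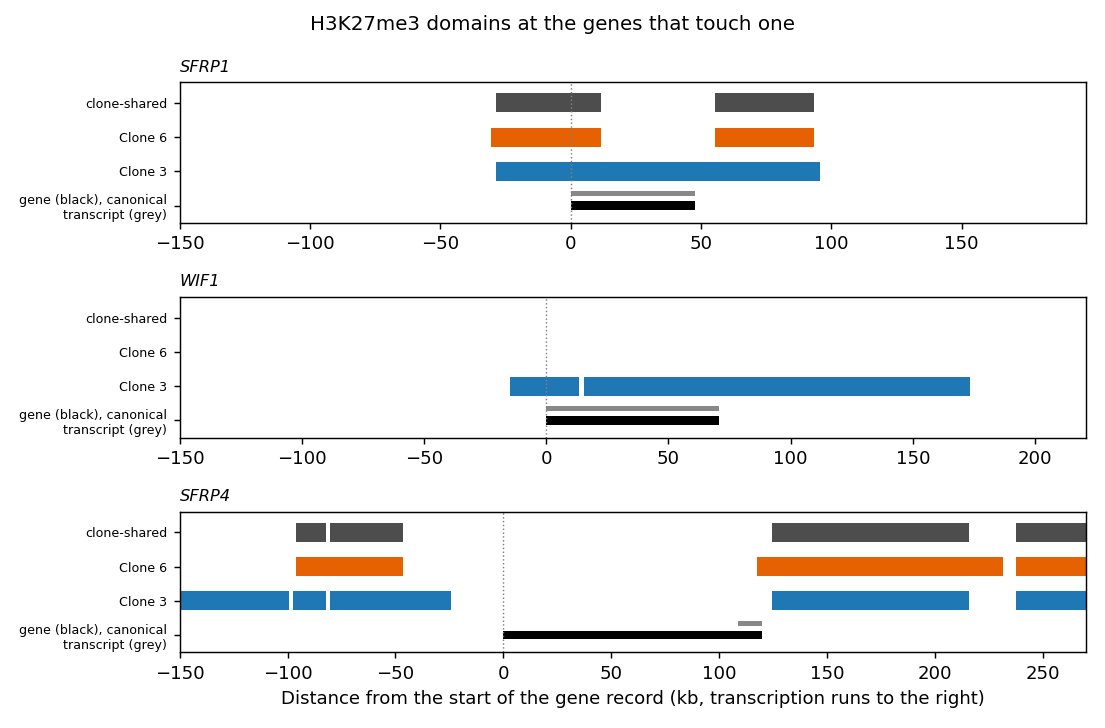
H3K27me3 domains around SFRP1, WIF1 and SFRP4, with distance from the start of the gene record in kb on the x axis, from 150 kb before to 150 kb after each gene. Bars show the domains of Clone 3 (blue), Clone 6 (orange) and both clones (grey) above the gene record (black) and the canonical transcript (thin grey). SFRP1 is covered whole in Clone 3 and at its start in Clone 6, and WIF1 has bars in Clone 3 only. SFRP4 lies between domains in Clone 3 and is reached at its 3′ end by a domain in Clone 6.

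WIF1 (ENSG00000156076.10), the WNT inhibitory factor, lies on the minus strand of chromosome 12 from 65050626 to 65121305, a record of 70.7 kb. In Clone 3 its start lay in an H3K27me3 domain of 28 kb, from 65108001 to 65136000, which reached 14.7 kb upstream and 13.3 kb downstream. A domain of 158 kb, from 64948001 to 65106000, held the rest of the gene after a gap of 2 kb. The domain over the start was short for its set, at least as long as 25.9% of the Clone 3 domains. Its first score was 11.7 and its second 40.7, and by the lower of them it stood at or above 4.65% of the set. The longer neighbour had scores of 133 and 40.7, hence the same second score. Joined by that score they made 1 stretch of 188 kb that covered 100% of WIF1. In Clone 6 the nearest H3K27me3 domain began at 66410001, 1289 kb upstream of the start, and no part of WIF1 lay in a domain. The clones thus differed over the whole gene and not at an edge. Within 500 kb of the start on each side, H3K27me3 domains took up 186 kb in Clone 3 and 0 kb in Clone 6.

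SFRP4 (ENSG00000106483.12) lies on the minus strand of chromosome 7 from 37905932 to 38025695, a record of 119.8 kb whose canonical transcript starts at 37916817, 108.9 kb inside it. SFRP4 stood with its start between domains in both clones. On its 5′ side the nearest H3K27me3 domain was 24.3 kb away in Clone 3, from 38050001 to 38106000, and 46.3 kb away in Clone 6, from 38072001 to 38122000. On its 3′ side a Clone 3 domain of 91 kb, from 37810001 to 37901000, ended 4.93 kb short of the gene, and a Clone 6 domain of 114 kb, from 37794001 to 37908000, ended 2.07 kb within it. Hence the canonical start lay 15.8 kb from H3K27me3 in Clone 3 and 8.82 kb from it in Clone 6. Within 500 kb of the start of the record, domains took up 707 kb in Clone 3 and 576 kb in Clone 6, with 550.0 kb in both. No other antagonist gene had as much H3K27me3 around it, and neither start of SFRP4 lay in a domain.

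SFRP5 (ENSG00000120057.5), on the minus strand of chromosome 10 from 97766751 to 97771999, also had H3K27me3 nearby in both clones. The nearest domain lay upstream in each, 144 kb away in Clone 3 (97916001 to 98125000) and 120.0 kb away in Clone 6 (97892001 to 98126000). Their outer edges differed by 1 kb and the edges facing the gene by 24 kb. Of the window of 500 kb on each side, 209 kb lay in domains in Clone 3 and 236 kb in Clone 6. All 209 kb of Clone 3 were shared, a Jaccard index (shared length over the length in either clone) of 0.886, against 0.750 around SFRP4 and 0.705 around SFRP1. Around these 3 genes the clones placed most of their H3K27me3 domains alike. Around WIF1, DKK1 and DKK4, where a single clone had H3K27me3 domains in the window, the index was 0.

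SFRP2 and FRZB, the remaining frizzled-related genes, had no H3K27me3 domain within 500 kb in either clone. SFRP2 (ENSG00000145423.5) lies on the minus strand of chromosome 4 from 153780591 to 153789083. Its start was 6674 kb from the nearest H3K27me3 domain in Clone 3 and 6825 kb in Clone 6, the farthest of the 10 genes. FRZB (ENSG00000162998.5) lies on the minus strand of chromosome 2 from 182833275 to 182866637, and its start was 4105 kb and 4107 kb from H3K27me3. The domain nearest to FRZB was the same in the clones up to its edges, 99 kb long in Clone 3 and 82 kb in Clone 6. For SFRP2 it was a domain of 446 kb in Clone 3, within which Clone 6 held a domain of 46 kb.

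Among the Dickkopf genes, DKK1 differed most between the clones in its surroundings. DKK1 (ENSG00000107984.10), an inhibitor that binds LRP6 and is itself a target of WNT signalling, lies on the plus strand of chromosome 10 from 52314281 to 52318042. In Clone 3 an H3K27me3 domain of 1028 kb, from 50995001 to 52023000, ended 291 kb upstream of its start. This domain was at least as long as 98.6% of the Clone 3 set. In Clone 6 the nearest H3K27me3 domain ended at 50288000, 2026 kb upstream, so no Clone 6 domain overlapped these 1028 kb. DKK1 also had the nearest H3K9me3 of the 10 genes, a domain of 3239 kb from 52948001 to 56187000 that began 634 kb downstream of its start, with the same edges in Clone 3 and in the clone-shared set. DKK1 thus lay in a stretch without a kept domain of either mark. An H3K27me3 domain bounded it on the 5′ side, in Clone 3, and an H3K9me3 domain on the 3′ side.

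DKK2 (ENSG00000155011.9) lies on the minus strand of chromosome 4 from 106921802 to 107283806, a record of 362 kb, the longest of the 10, whose canonical transcript starts at 107036313. Its start was 1522 kb from H3K27me3 in Clone 3 and 1564 kb in Clone 6. DKK3 (ENSG00000050165.19) lies on the minus strand of chromosome 11 from 11956207 to 12009769. The nearest H3K27me3 domain began at 15272001 in both clones, 3262 kb away. At 1358 kb and 1392 kb it was at least as long as 99.6% and 99.4% of its set. DKK2 and DKK3 had no domain of either mark within 1000 kb. DKK4 (ENSG00000104371.5) lies on the minus strand of chromosome 8 from 42374063 to 42377229, on the same chromosome as SFRP1. Its start was 948 kb from H3K27me3 in Clone 3 and 459 kb in Clone 6, on opposite sides of the gene. In the clone-shared set the domain nearest to DKK4, 1039 kb away, was the domain over the start of SFRP1.

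**Figure D3:**
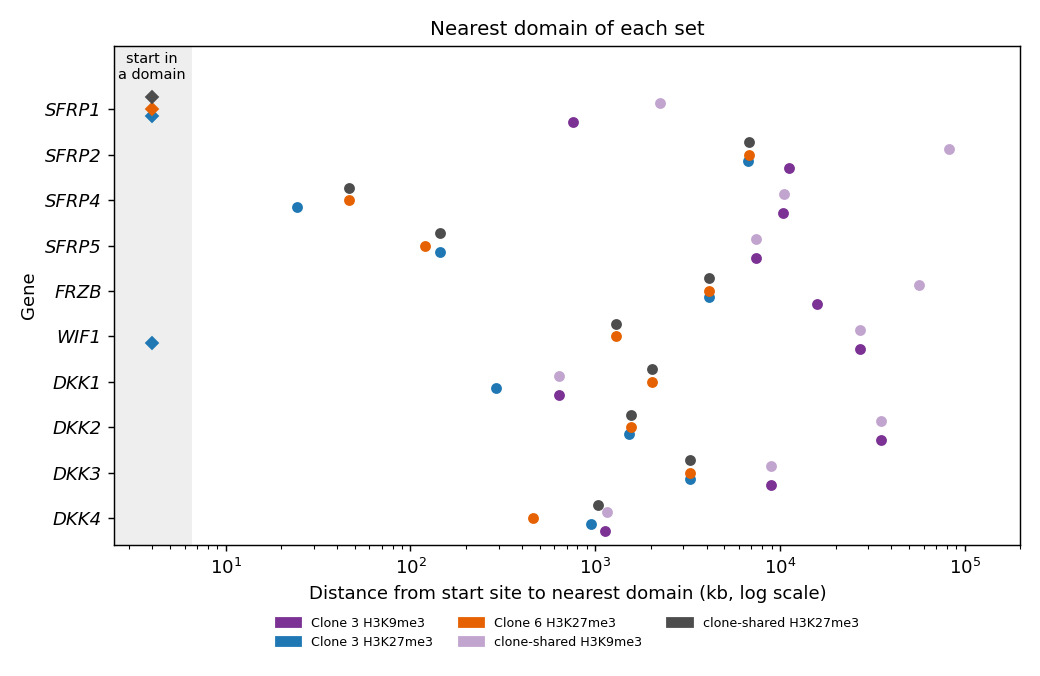
Distance from each start site to the nearest domain, in kb on a log axis, with 1 colour for each of the 5 sets. Diamonds in the shaded band are starts inside a domain (SFRP1 in 3 sets, WIF1 in 1), which have no distance, and circles are starts outside. Both H3K9me3 sets lie at 634 kb or farther for every gene, and the H3K27me3 sets of the clones differ most for WIF1 and DKK1.

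For H3K9me3 the distances were long. In Clone 3 they ran from 634 kb at DKK1, 755 kb at SFRP1 and 1132 kb at DKK4 to 35016 kb at DKK2, with a median of 9628 kb. Of all protein-coding genes outside H3K9me3 domains, the median was 3422 kb, and 7 of the 10 antagonists lay farther than that. In the clone-shared set, where the median of the genes outside was 3834 kb, 7 of 10 lay farther as well. The nearest Clone 3 domain of SFRP2 (31 kb long, 11110 kb away), of FRZB (25 kb long, 15816 kb away) and of SFRP1 (106 kb long) was not kept in the clone-shared set. There these distances rose to 81569 kb for SFRP2, 56455 kb for FRZB and 2227 kb for SFRP1. The nearest Clone 3 domain of DKK2 (32 kb long) was not kept either, and its distance went from 35016 kb to 35064 kb. None of the 10 genes had an H3K9me3 domain within 500 kb of its start, beside 11.3% of all genes in Clone 3 and 10.7% in the clone-shared set.

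For H3K27me3, the antagonists were spread over the range of other genes. Starts inside or within 500 kb of a domain numbered 5 of 10 in Clone 3 (SFRP1, WIF1, SFRP4, SFRP5 and DKK1), where 41.1% of all genes were so placed, over the 19970 genes on chromosomes with an H3K27me3 domain. In Clone 6 they numbered 4 of 10 (SFRP1, SFRP4, SFRP5 and DKK4) beside 50.0% of all genes, and in the clone-shared set 3 of 10 (SFRP1, SFRP4 and SFRP5) beside 36.0%. Among genes outside the domains, 5 of 8 antagonists in Clone 3 lay farther than the median of 792 kb, and 6 of 9 in Clone 6 lay farther than the median of 580.0 kb. The window of 500 kb on each side held no H3K27me3 domain for 5 of 10 antagonists in Clone 3 and 6 of 10 in Clone 6. The shares of all 20033 genes were 59.0% and 50.2%.

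SFRP1 and WIF1 had more CpGs at their starts than most of the other genes inside H3K27me3 domains. Within 500 bp of its start SFRP1 had 109 CpGs, the most of the 10, and WIF1 had 73. All protein-coding genes with a start in a Clone 3 H3K27me3 domain had a median of 17 CpGs, against 60 for the genes outside. Of the 1290 genes inside in Clone 3, 5.19% had at least as many CpGs as SFRP1 and 19.5% at least as many as WIF1. In Clone 6, 7.95% of the 1597 genes inside had at least as many as SFRP1. Both genes thus lay high among the genes inside, whose median was also 17 where both clones had the domain, 15 in Clone 3 alone and 36 in Clone 6 alone. The members were chosen by name, and several are known for dense promoter methylation in colorectal cancer, a choice that may favour CpG-rich starts. These values are therefore given as a description.

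Outside the domains, SFRP5 had 90 CpGs at its start, SFRP2 83, DKK1 59, DKK3 52, FRZB 50, DKK4 18, and SFRP4 and DKK2 5 each. The low values of SFRP4 and DKK2 belonged to the far 5′ end of their records. At the start of the canonical transcript SFRP4 had 73 CpGs, DKK2 had 46 and DKK3 had 86. The median of the 10 was 55.5 at the start of the record and 73 at the canonical start, and that of all genes was 58 and 66. A CpG-rich start was therefore found both in genes inside H3K27me3 (SFRP1, WIF1) and in genes several Mb from it (SFRP2).

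**Figure D4:**
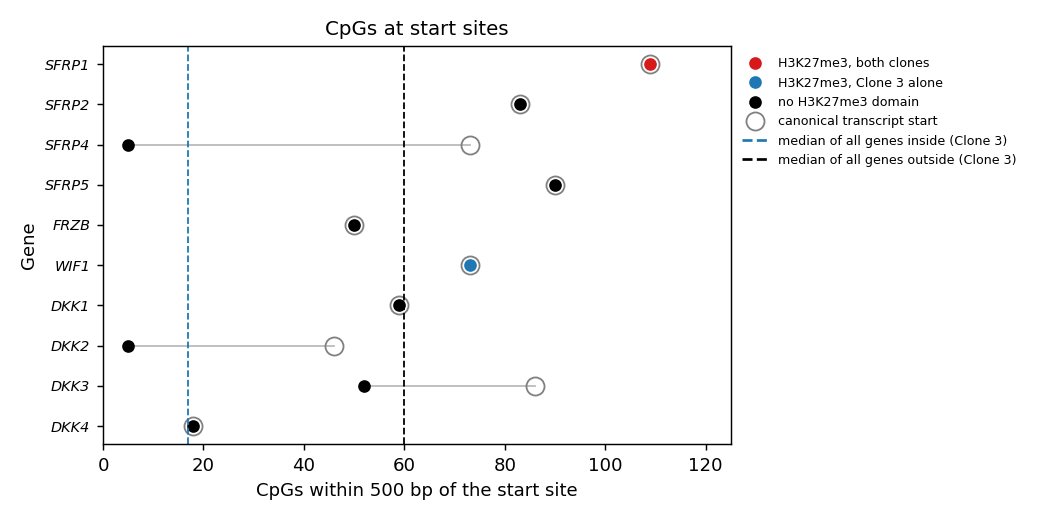
CpGs within 500 bp of the start of the gene record (filled) and of the canonical transcript (open) for each gene, on the x axis. Red marks a start in an H3K27me3 domain of both clones, blue in Clone 3 alone and black in neither, and the dashed lines are the medians of all protein-coding genes inside (17) and outside (60) the Clone 3 domains. SFRP1 with 109 and WIF1 with 73 lie to the right of both lines.

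Over whole gene bodies, SFRP1 had 16.0 CpGs per kb, near the median of 14.3 over all genes, and WIF1 had 5.69, the lowest of the 10. Low-density CpGs, those at least 20 bp from the nearest CpG, made up 46.3% of the CpGs in SFRP1 and 71.4% in WIF1, against a median of 45.4% over all genes. The remaining frizzled-related genes ranged from 23.4% in SFRP2 to 60.9% in SFRP4, and the Dickkopf genes from 25% in DKK1 to 67.2% in DKK2. The domain over the start of SFRP1 held 12.9 CpGs per kb in Clone 3 and 16.5 in the shorter Clone 6 domain. In the same domains 51.1% and 41.2% of CpGs were low-density. The domain over the start of WIF1 held 9.86 CpGs per kb against 5.69 over the gene as a whole, and 46.0% of its CpGs were low-density.

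The other genes of the WNT pathway were placed in the same way, over 5 lists with 73 genes. In H3K27me3 domains lay 7 of 73 starts in Clone 3, 8 in Clone 6 and 6 in both clones, beside 6.44%, 7.97% and 5.32% of all genes. Among 13 other extracellular inhibitors, 3 had their start in H3K27me3 in both clones. These were CER1, a secreted antagonist of Nodal, BMP and WNT signalling (domains of 440 kb in Clone 3 and 442 kb in Clone 6), TRABD2B, a membrane protease that cleaves WNT ligands (285 kb and 512 kb), and APCDD1, a membrane protein that binds WNT and LRP5 (255 kb and 438 kb). Their domains were longer than those over the start of SFRP1 (124 kb and 42 kb) in each clone. Of 9 R-spondins and their receptors, the R-spondins RSPO1 (78 kb and 82 kb) and RSPO2 (1305 kb and 1310 kb), which enhance WNT signalling, lay in H3K27me3 in both clones.

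Of 15 receptors FZD8 alone lay in H3K27me3 in both clones (258 kb and 238 kb). None of 19 ligands had its start in H3K27me3 in both clones, with 1 in Clone 3 alone, whose canonical start lay outside the domain, and 1 in Clone 6 alone, and none of 17 intracellular components had its start in a domain of any set. Where 0 of 10 antagonists lay in H3K9me3, 1 of 19 ligands did, WNT5A in a Clone 3 domain of 1463 kb, and 1 of 15 receptors, FZD10 in a domain of 1209 kb. Both starts lay in the clone-shared H3K9me3 set too. SFRP1 and 3 inhibitors of other kinds thus stood in H3K27me3 in both clones, as did the enhancers RSPO1 and RSPO2, and no list was tested against all genes.

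**Figure D5:**
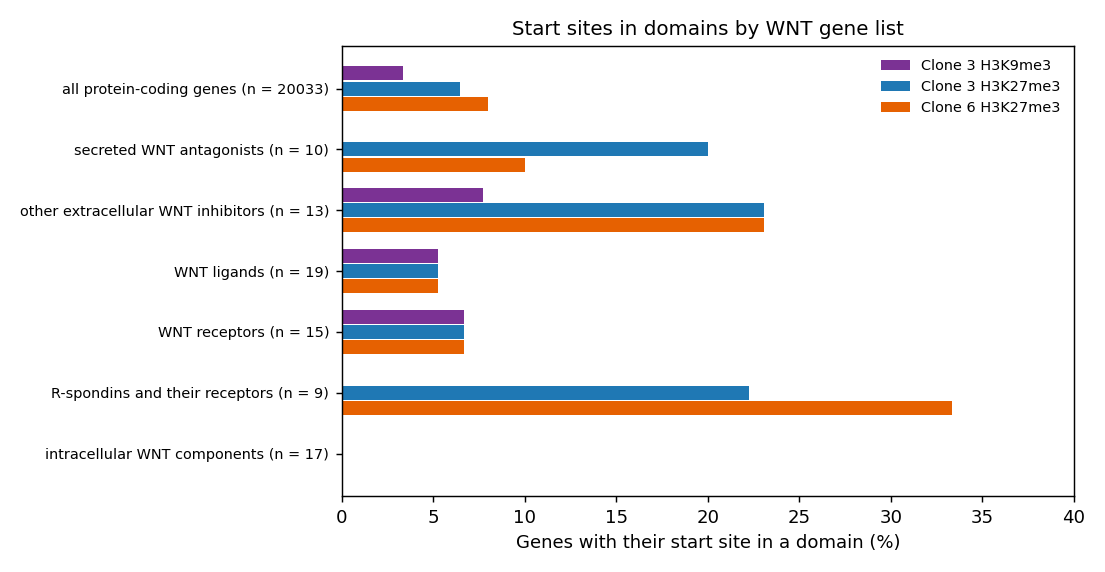
Percent of genes with their start site in a domain (x axis, from 0) for all protein-coding genes and for 6 WNT gene lists, with the number of genes in brackets. Purple bars are H3K9me3 of Clone 3, blue and orange bars are H3K27me3 of Clone 3 and Clone 6, and a missing bar is a count of 0. The secreted antagonists have 0 of 10, 2 of 10 and 1 of 10.

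The starts of 10 epithelial and intestinal marker genes lay in 0 domains of any set. Of 15 markers of haematopoietic, endothelial, neural and mesenchymal cells, 1 lay in H3K27me3 in Clone 3 and 1 in Clone 6. Beside shares of 6.44% and 7.97% of all genes, such counts cannot tell cell types apart. The sets held 567 domains for Clone 3 H3K9me3, 2600 for Clone 3 H3K27me3 and 1959 for Clone 6 H3K27me3, with median lengths of 140.0 kb, 58 kb and 78 kb. Each set is 1 merged list of domains kept in the replicates, with no value for a sample, so no distance or count here has a replicate error and no difference between the clones was tested. The depth of each library cannot be read from domain sets, although the study's methods set a minimum number of read pairs per library. A start outside the domains is a start where no broad domain was kept, and the sets cannot show that the mark was absent there.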

How the data were processed

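ChIP-seq for H3K9me3 and H3K27me3 was done with 2 x 50 bp reads in HCT116 shUHRF1 cells without doxycycline, and samples were grouped by clone and mark from their labels. The authors trimmed reads with Trim Galore 0.5.0, aligned them to hg38 with Bowtie2 2.3.5, removed duplicates with samblaster, called domains with Enriched Domain Detector against input under default settings, kept the coordinates found in both replicates of a clone, and then those shared by the clones. They deposited domain coordinates in whole kb, with 2 scores for each domain of a clone set; each score was used as deposited by the authors, on a scale not given in the sources used here. The methods set a minimum depth for input and immunoprecipitated libraries, but counts of reads are not part of these files, so the depth of each sample and its precision were not computed.

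Domains were intersected with GENCODE 44 gene records, canonical transcripts and CpGs of hg38 in Python 3.11.15 (numpy 2.4.6, matplotlib 3.10.9). The overlap and distance functions were tested on simulated data. No test was run, because each set is a single merged list. The rule for named genes gave all 10 antagonists, the WNT genes with a start in H3K27me3 of both clones or in H3K9me3, and genes sharing a domain with an antagonist start, of which there was none; a gene that the rule named is not reported here. The members and lists were chosen with earlier results of these data known. Alternatives were other start definitions, a 10 kb margin, trimming or joining by 10 kb, domains of at least 100 kb, at least 50% of a gene, the upper 50% of domains by the lower score, all GENCODE genes as background and, chosen after the data had been seen, joining neighbours of equal score.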

Additional observations from a re-analysis of the deposited data

How the results depend on the processing

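The placement of SFRP1 and WIF1 rested on domain length and score. With domains of at least 100 kb only, starts in H3K27me3 numbered 1 in Clone 3 (SFRP1), 0 in Clone 6 and 0 in the clone-shared set. The shares of all protein-coding genes at this setting were 4.84%, 6.06% and 4.06%. Bodies at the same setting numbered 1 in Clone 6 (SFRP4) and 0 in the clone-shared set. With the upper 50% of domains by the lower score, starts numbered 0 in Clone 3 and 0 in Clone 6, and bodies 1 in Clone 3 (WIF1) and 1 in Clone 6 (SFRP4). Asking for at least 50% of the gene left 0 bodies in Clone 6 and 0 in the clone-shared set, and trimming domains by 10 kb left 1 body in Clone 6 (SFRP1). By construction, these settings keep fewer domains or fewer bases, or ask for more of a gene. Under the others (canonical or any transcript start, a margin or joining of 10 kb, joining by equal score) no count of antagonists moved. The counts of 0 in H3K9me3 held under every setting, but most settings could not have changed them. Settings that keep fewer domains or bases, or ask for more of a gene, cannot raise a count of 0. The nearest H3K9me3 domain lay 634 kb from a start, so a margin or joining of 10 kb could not reach one either. Of 77 recomputed counts 12 moved by over 1.5 times and 65 did not. The 65 include the counts of 0 in H3K9me3. They also include the count of genes with the same status in both clones, which went from 9 to 10 with the upper 50% of domains. With domains of at least 100 kb it was still 9, but the gene that differed was SFRP1 in place of WIF1. With all GENCODE genes the share of starts inside was 6.92% for Clone 3 H3K9me3, 9.24% for Clone 3 H3K27me3 and 10.1% for Clone 6 H3K27me3. Leaving out a replicate was not possible, since replicates were merged before deposit. No paired analysis was possible because the result comes from no test and the sets hold no replicate values.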

Other observations

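Some WNT genes outside the rule for named genes also differed between the clones. LGR6, a receptor of the R-spondins, had its start in an H3K27me3 domain of 148 kb in Clone 6 alone, while 82.4% of its record lay in H3K27me3 in Clone 3. The ligand WNT5B had its start in a Clone 3 domain of 13 kb and WNT7A in a Clone 6 domain of 28 kb (13862001 to 13890000 on chromosome 3), neither shared with the other clone. The canonical start of WNT5B lay outside the Clone 3 domains, so its call rests on the start of the gene record. These 3 genes were chosen after their values had been seen, and the differences were not tested.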
